A study of Mus musculus with 8 samples.

Results

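Iron handling genes were examined in liver cells of mice that differed in Adar1. The 10 genes were chosen by name from the 25229 genes in each count table: Hamp, Hamp2, Tfrc, Tfr2, Trf, Slc40a1, Fth1, Ftl1, Slc39a14 and Cp. All 10 were present in every table and all 10 passed the filter on low counts. The mice were C57BL/6, and every mouse was Ifih1-/-, and so without MDA5, which senses double-stranded RNA, and carried Alb-Cre, a recombinase driven by the albumin promoter and so active in hepatocytes. They differed in the floxed alleles of Adar1, the gene of an RNA-editing enzyme: Adar1 wt/wt (3 libraries, labelled 11, 9 and 7 weeks of age for replicates 1, 2 and 3), wt/flox (2 libraries, 11 and 9 weeks) and flox/flox (3 libraries, 11, 9 and 7 weeks). No group had floxed alleles without Cre, and no group carried functional Ifih1. The cells were released by collagenase perfusion, pelleted at low speed, freed of red cells and taken from a Percoll gradient. Their RNA was depleted of ribosomal RNA and sequenced with strand kept. The design asks what loss of Adar1 changes when Ifih1 is absent.

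The liver sets body iron. Hepatocytes make hepcidin, the hormone encoded by Hamp, which binds the iron exporter ferroportin (Slc40a1) on the cell surface and has it degraded. Hepcidin transcription is raised by bone morphogenetic protein (BMP) signalling when iron is plentiful and by interleukin 6 through STAT3 in inflammation. Inside the cell, iron regulatory proteins bind iron-responsive elements, short RNA hairpins, when iron is scarce. Binding in a 5′ UTR blocks translation, as in the ferritin mRNAs, and binding in a 3′ UTR stabilises the mRNA, as in that of the transferrin receptor.

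The elements that join the members to these controls were read from the reference sequences. An iron-responsive element was searched as a C, 5 bases, the loop letters CAGTG, a base other than G, and 5 bases able to pair with the first 5. It was searched on the sense strand of the UTRs of each gene's principal transcript in GENCODE M21 (GRCm38). It was present in 4 of the 10 members. They are shown because the same hairpin sits at opposite ends of the mRNAs, with the 6 loop bases in capitals and T for U, 30 bases each.
Fth1 5′ UTR, chr19:9982732-9982761, plus strand: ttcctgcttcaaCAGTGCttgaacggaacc
Ftl1 5′ UTR, chr7:45459778-45459807, minus strand: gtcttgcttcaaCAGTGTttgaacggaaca
Slc40a1 5′ UTR, chr1:45925464-45925493, minus strand: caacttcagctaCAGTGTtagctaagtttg
Tfrc 3′ UTR, site 1, chr16:32631219-32631248, plus strand: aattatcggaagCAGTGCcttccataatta
Tfrc 3′ UTR, site 2, chr16:32631598-32631627, plus strand: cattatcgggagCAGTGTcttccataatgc
Tfrc 3′ UTR, site 3, chr16:32631663-32631692, plus strand: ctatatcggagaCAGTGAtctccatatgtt
Tfrc 3′ UTR, site 4, chr16:32631710-32631739, plus strand: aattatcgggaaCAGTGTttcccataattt
The pattern was found in 16 of 18781 5′ UTRs (0.0852%) and in 82 of 19792 3′ UTRs (0.414%). Fth1, Ftl1 and Slc40a1 each held 1 site and Tfrc held 4. A match describes letters only.

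The promoters of the hepcidin genes are shown because the pair lie near each other on chromosome 7 and differ in a known element. They are given as the 150 bases that end just before the start of RefSeq's gene (GRCm38.p6), on the minus strand. In GENCODE M21 the gene span of Hamp2 (30922372 to 30924681) starts farther upstream, so the Hamp2 window lies inside that span. Capitals mark the BMP element GGCGCC and the STAT element TTCTTGGAA, both searched on both strands and not overlapping each other.
Hamp, chr7:30944030-30944179: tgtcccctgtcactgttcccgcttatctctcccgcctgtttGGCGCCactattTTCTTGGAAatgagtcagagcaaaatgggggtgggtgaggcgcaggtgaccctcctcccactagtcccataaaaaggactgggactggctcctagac
Hamp2, chr7:30924182-30924331: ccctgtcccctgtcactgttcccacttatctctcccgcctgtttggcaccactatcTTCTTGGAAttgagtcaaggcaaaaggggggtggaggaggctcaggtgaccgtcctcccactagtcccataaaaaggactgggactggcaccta
The Hamp promoter held the BMP element with its first base 109 bases before the start and the STAT element 97 bases before it. The Hamp2 promoter held the STAT element 94 bases before its start and, at the place of the BMP element, GGCACC, which is the substitution G4A counted from the element's first base. The pair were identical at 135 of 147 aligned bases (91.8%), with 12 different and 6 gap bases. Over windows of the same length, GGCGCC was present in 1895 of 27025 promoters (7.01%), TTCTTGGAA in 50 (0.185%) and both in 1 (0.0037%), that of Hamp. RefSeq promoters were matched for 7 of the 10 members.

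Library sizes and 3 marks of the libraries touch all results. Sense reads in genes ranged from 75875711 to 132303735 per library, and the lowest count of a member was 573 reads, that of Hamp2 in wt/wt replicate 1. The wt/wt tables carry no batch mark, whereas the headers of all wt/flox and flox/flox tables say batch2, so genotype and that mark cannot be told apart in comparisons with wt/wt. Only flox/flox against wt/flox lies within the mark. There both wt/flox libraries held Y-linked transcripts and flox/flox replicates 2 and 3 held Xist, so genotype and sex are partly confounded. No wt/flox library was labelled 7 weeks. Xist and Y-linked transcripts contradicted the labelled sex of 2 libraries, flox/flox replicate 1 (labelled female, 31 Xist and 21255 Y-linked reads) and flox/flox replicate 2 (labelled male, 246646 Xist and 0 Y-linked reads), so sex was taken from these transcripts and the labelled ages of those libraries are uncertain too. The design text counts 2 flox/flox mice where 3 samples bear the genotype. Alignments to several places took 8.97% to 10.9% of reads in the wt/wt libraries, against 3.92% to 4.98% in the remaining 5. These were not given to genes, so Hamp, Hamp2, Fth1 and Ftl1, which have near-identical copies in the genome, are uncertain. Adar (the gene symbol of Adar1) was at 28.1, 30.0 and 53.6 CPM in wt/wt, at 22.0 and 31.8 in the wt/flox libraries, and at 49.4, 35.9 and 42.1 in flox/flox (log2 fold change 0.15, SE 0.27, edgeR adjusted p = 0.693, flox/flox against wt/wt). The floxed exons are not stated, so the gene's total checks little of the deletion.

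In flox/flox against wt/wt liver cells, mRNAs of the ferritin subunits, which store iron, were lower, and those of an importer (Slc39a14), the exporter (Slc40a1), ceruloplasmin (Cp) and the iron sensor Tfr2 were higher. Fth1 was 2.34-fold and Ftl1 1.86-fold lower. Slc39a14 was 2.44-fold, Slc40a1 2.26-fold, Cp 2.02-fold and Tfr2 1.57-fold higher. Hamp, Hamp2, Trf and Tfrc did not pass the test. Thus 4 of the 10 members rose and 2 fell by edgeR's quasi-likelihood test at an adjusted p under 0.05, where 29.1% of the 14728 genes tested were called (14.5% higher and 14.6% lower). The members' median log2 fold change was 0.71, and that of all genes 0.01. The libraries did not overlap for 5 members that were higher and 2 that were lower, where 23% and 22% of all genes did the same. Values below are CPM, the field's usual depth-scaled read count, here of sense reads after TMM normalisation, given in the order of replicates 1, 2 and 3. In bulk RNA, fewer cells of a type and less RNA per cell cannot be told apart.

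**Figure D1:**
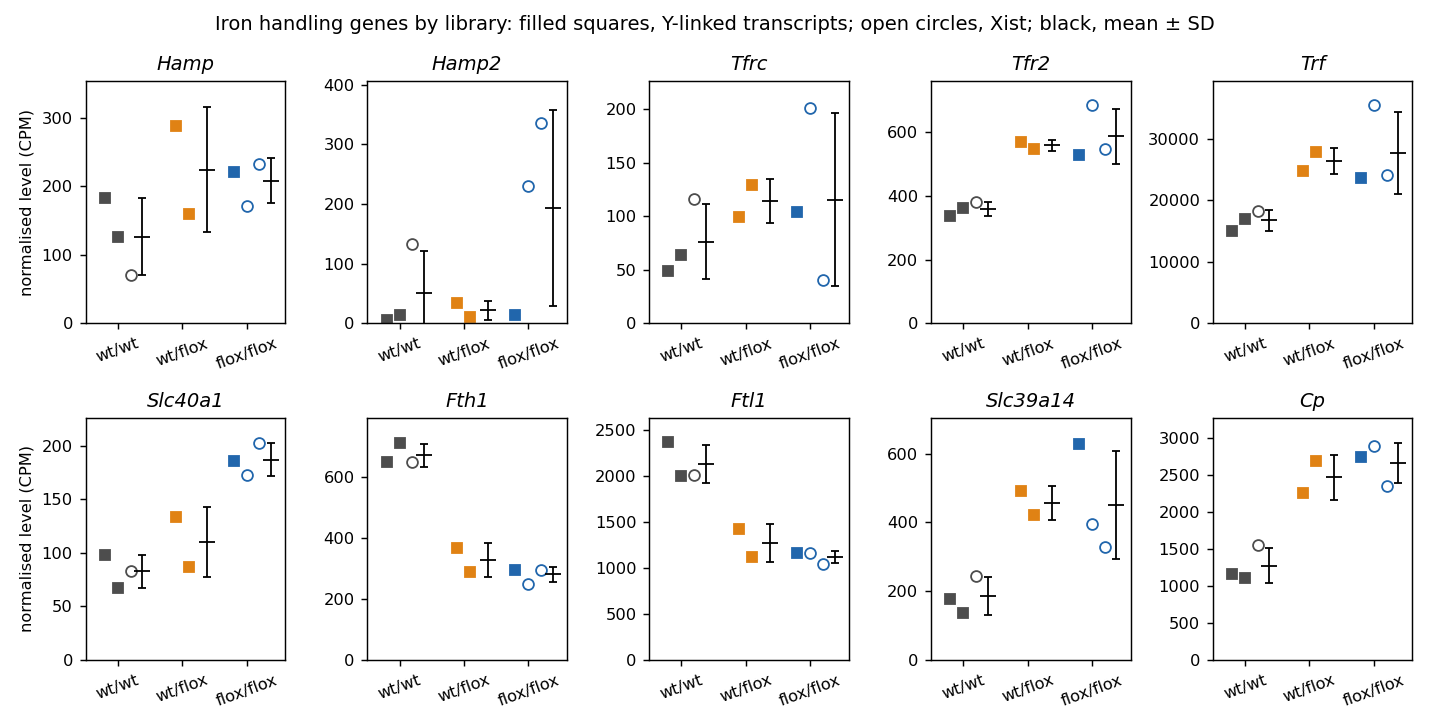
Level of each iron handling gene in CPM (vertical axis, from 0) in the 3 wt/wt, 2 wt/flox and 3 flox/flox libraries. Filled squares are libraries with Y-linked transcripts, open circles are libraries with Xist, and black bars are mean ± SD (the lower bar of Hamp2 in wt/wt runs below 0). Fth1 and Ftl1 lie lower in every flox/flox than in every wt/wt library, and Tfr2, Trf, Slc40a1, Slc39a14 and Cp lie higher.

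Ferritin stores iron in a shell of heavy and light subunits, and Fth1 (chromosome 19, 9980598 to 9985098, plus strand, GRCm38) encodes the heavy subunit, which oxidises iron as it enters. Fth1 was at 649.1, 712.9 and 651.1 CPM in wt/wt, 368.5 and 289.0 in the wt/flox libraries, and 295.1, 250.8 and 296.1 in flox/flox. Every wt/wt library lay above every other library. The mean fell from 671.0 ± 36.3 (SD, n = 3) to 280.6 ± 25.9 (n = 3), a log2 fold change of -1.23 (SE 0.15, edgeR adjusted p = 0.00348). Ftl1 (chromosome 7, 45457944 to 45459884, minus strand) encodes the light subunit, which helps to form the mineral core. Ftl1 was at 2369, 2002 and 2009 CPM in wt/wt, 1419 and 1120 in the wt/flox libraries, and 1160, 1157 and 1038 in flox/flox. Here too the wt/wt libraries lay apart, above the rest. In flox/flox the fitted log2 fold change was -0.89 (SE 0.16, edgeR adjusted p = 0.00793). Summed, the subunits gave 2660 to 3018 CPM in wt/wt and 1334 to 1455 in flox/flox. The ratio of light to heavy subunit reads ran from 2.81 to 3.65 in wt/wt, 3.85 to 3.88 in wt/flox and 3.51 to 4.61 in flox/flox.

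Fold changes moved with exon length across all genes, and the ferritin genes sit in the class that was lowest. In flox/flox against wt/wt, the 943 genes with 500 to 1000 exon bases had a median log2 fold change of -0.61, the 391 genes below 500 bases 0.74, and the 636 genes of 8000 bases or more 0.48. Fth1 (929 bases) and Ftl1 (968 bases) were the members in the first of these classes. With the trend on length removed, Fth1 moved from -1.23 to -0.85 (edgeR adjusted p = 0.0107). Ftl1 moved from -0.89 to -0.53 (edgeR adjusted p = 0.0495), close to the threshold. Each moved by less than the -0.61 median of their class, so the fitted trend may leave part of the length effect in both. How far the ferritin differences go beyond that effect is uncertain. In the same fit Slc40a1 was at 1.13, Cp at 0.93, Tfr2 at 0.63 and Slc39a14 at 1.14, all still called. Hamp (410 bases) moved up from 1.01 to 1.51 and passed (edgeR adjusted p = 0.0209). Hamp2 (437 bases) moved from 0.76 to 1.28 and did not pass. Both shifts go against the 0.74 median of their class. The fitted trend and the class median thus disagree at this length, and the call of Hamp is uncertain. In flox/flox against wt/flox, within the batch mark, the class of the ferritin genes had a median of -0.10.

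**Figure D2:**
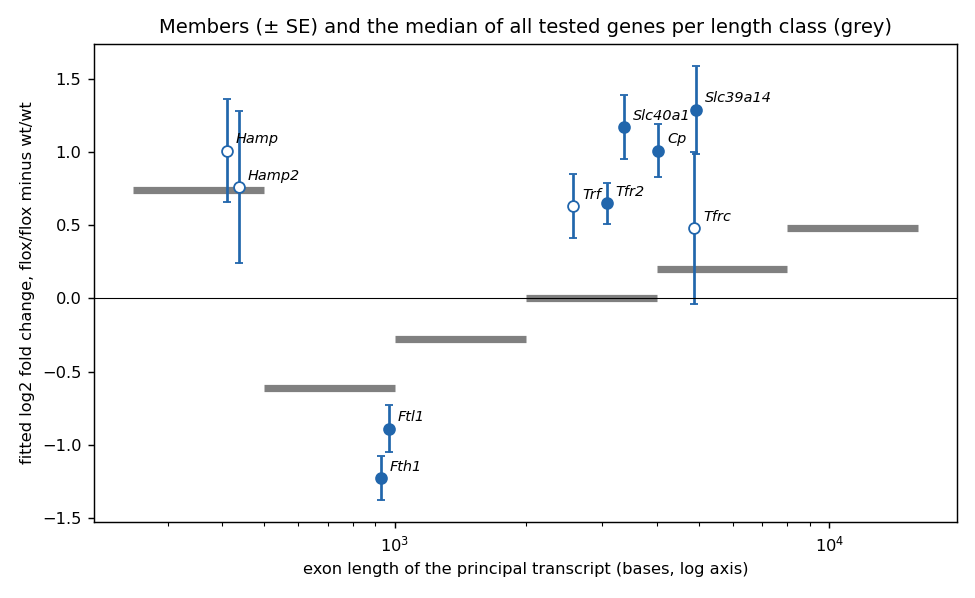
Fitted log2 fold change of flox/flox minus wt/wt (vertical axis) against the exon length of the principal transcript in bases (log axis). Points are the members with ± SE (filled, edgeR adjusted p under 0.05) and grey bars are the medians of all tested genes per length class. The ferritin genes lie below the -0.61 of their class and Slc40a1, Cp, Tfr2 and Slc39a14 lie above theirs.

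Hepcidin did not pass the test. Hamp (chromosome 7, 30942368 to 30944032, minus strand) encodes the hormone. It was at 182.5, 125.9 and 70.8 CPM in wt/wt, 288.2 and 159.6 in the wt/flox libraries, and 220.5, 170.6 and 232.6 in flox/flox. The groups overlapped, with wt/wt replicate 1 above flox/flox replicate 2. The log2 fold change in flox/flox against wt/wt was 1.01 (SE 0.35, 95% interval 0.20 to 1.82, edgeR adjusted p = 0.0631). It was at 0.51 without wt/wt replicate 3 (edgeR adjusted p = 0.373). It passed under 5 of the 23 alternatives, among them without wt/wt replicate 1 (1.20, edgeR adjusted p = 0.0436) and with DESeq2 (1.00, adjusted p = 0.00636), and did not pass under the other 18.

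Hamp2 (chromosome 7, 30922372 to 30924681, minus strand) is a mouse copy of Hamp whose peptide has not been found to lower blood iron. It was at 5.82, 14.0 and 132.8 CPM in wt/wt, 33.3 and 10.7 in the wt/flox libraries, and 13.4, 230.8 and 335.1 in flox/flox. The 3 high libraries, wt/wt replicate 3 and flox/flox replicates 2 and 3, were the 3 with Xist transcripts. They ran from 132.8 to 335.1 CPM and the 5 libraries with Y-linked transcripts from 5.82 to 33.3, so the lowest of the first was 3.99-fold above the highest of the others. Hamp2 was the only one of the 10 members whose levels did not overlap in this split, in which 3.8% of all tested genes were higher without overlap and 3.59% lower. Both libraries labelled 7 weeks are among the Xist libraries and all libraries labelled 11 weeks are among the others, and the part of age in the level of Hamp2 was not tested. Reads of Hamp2 per read of Hamp ran from 0.0319 to 0.115 in the Y-linked libraries and were 1.88, 1.35 and 1.44 in the Xist libraries. With sex in the fit, the genotype difference was 0.76 (SE 0.52, edgeR adjusted p = 0.296).

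**Figure D3:**
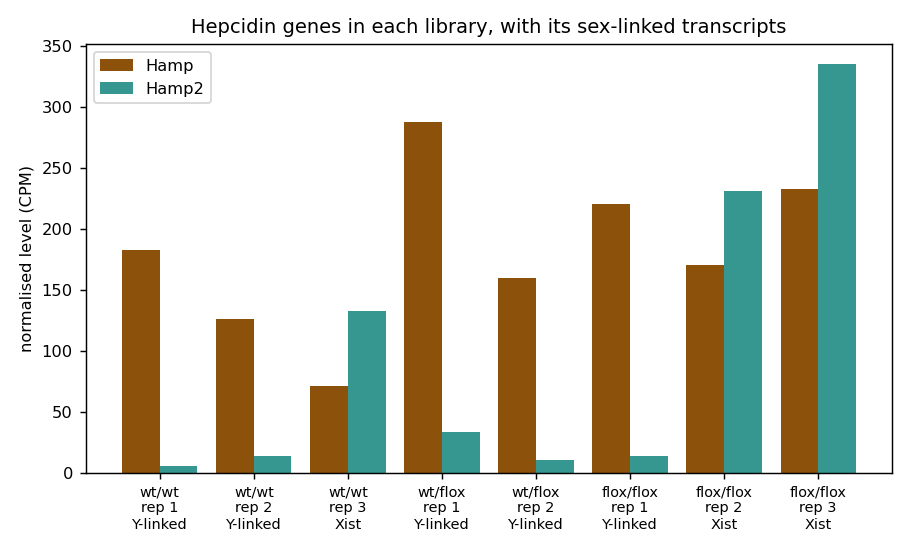
Levels of Hamp and Hamp2 in CPM (bars from 0) in each of the 8 libraries, named by group, replicate and sex-linked transcripts. Hamp2 stands at 132.8, 230.8 and 335.1 CPM in the Xist libraries and at 33.3 or less in the others, while Hamp does not follow this split.

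By the rule for likeness, the 5 genes closest to Hamp over the 8 libraries were Smim13 (Pearson r 0.960), Tm2d1 (0.951), Fam160b1 (0.949), Acsm5 (0.944) and Kansl3 (0.942), given as a description over libraries that share genotype and batch mark. Hamp2 was at -0.107 on the same measure.

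Transferrin carries iron in the blood, transferrin receptor 1 (Tfrc) takes it into cells, and transferrin receptor 2 (Tfr2) acts in hepatocytes as a sensor of loaded transferrin upstream of hepcidin. Trf (chromosome 9, 103204001 to 103230444, minus strand) was at 14956, 16909 and 18266 CPM in wt/wt, 24834 and 27879 in the wt/flox libraries, and 23560, 35445 and 24105 in flox/flox. The wt/wt libraries were the 3 lowest. The difference did not pass in flox/flox (log2 fold change 0.63, SE 0.22, edgeR adjusted p = 0.0699). It passed under 5 of the 23 alternatives and did not pass under the other 18. Among the 5 were the fit without the sex term (0.73, edgeR adjusted p = 0.0409) and DESeq2 with it (0.63, adjusted p = 0.0101). Tfr2 (chromosome 5, 137569840 to 137587481, plus strand) was at 335.7, 362.1 and 379.8 CPM in wt/wt, 571.1 and 546.8 in the wt/flox libraries, and 530.1, 687.2 and 547.0 in flox/flox. Again no wt/wt library reached another group. The log2 fold change was 0.65 (SE 0.14, edgeR adjusted p = 0.0129). Tfrc (chromosome 16, 32608920 to 32632794, plus strand), which holds the 4 elements in its 3′ UTR, was at 49.1, 63.4 and 115.6 CPM in wt/wt, 99.6 and 128.7 in the wt/flox libraries, and 104.2, 201.1 and 40.4 in flox/flox. The flox/flox libraries held both the highest and the lowest value of the series. The log2 fold change was 0.48 (SE 0.52, 95% interval -0.75 to 1.70, edgeR adjusted p = 0.517). Its direction depended on the libraries kept: it was called higher without flox/flox replicate 3 (0.85, edgeR adjusted p = 0.0191) and called lower, at -1.53 (edgeR adjusted p = 0.0398), without the 2 libraries of contradicted sex, which leaves flox/flox replicate 3 alone in its group.

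The exporter gene and that of its ferroxidase rose. Slc40a1 (chromosome 1, 45908068 to 45926523, minus strand) encodes ferroportin, the only known iron exporter of mammalian cells. It was at 97.9, 67.1 and 83.1 CPM in wt/wt, 133.1 and 87.1 in the wt/flox libraries, and 186.1, 172.2 and 202.6 in flox/flox. The flox/flox libraries lay above all others, and wt/flox overlapped wt/wt. The log2 fold change in flox/flox against wt/wt was 1.17 (SE 0.22, edgeR adjusted p = 0.00884). Macrophages of the liver also make ferroportin. Of 12 Kupffer cell markers 2 fell, where 14.6% of all genes fell, and all 12 lay below 0 (median log2 fold change -1.10). Summed, these markers were at 62.8 to 268.7 CPM in wt/wt, 35.1 to 36.6 in wt/flox, and at 53.3, 35.0 and 123.2 in flox/flox. The flox/flox and wt/wt ranges overlapped, and the part of these cells in the level of Slc40a1 was not tested. Cp (chromosome 3, 19957054 to 20009145, plus strand) encodes ceruloplasmin, the copper enzyme of plasma that oxidises iron so that transferrin can bind it. Cp was at 1168, 1113 and 1550 CPM in wt/wt, 2260 and 2689 in the wt/flox libraries, and 2749, 2891 and 2360 in flox/flox. The wt/wt libraries were again the 3 lowest. On the log2 scale the difference was 1.01 (SE 0.18, edgeR adjusted p = 0.00759).

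The importer Slc39a14 (chromosome 14, 70303469 to 70351425, minus strand) encodes ZIP14, which takes up iron that is not bound to transferrin. It was at 176.3, 135.2 and 244.3 CPM in wt/wt, 490.6 and 421.5 in the wt/flox libraries, and 627.7, 395.7 and 327.3 in flox/flox. All wt/wt libraries lay below the rest, and flox/flox replicate 1 was the highest. Fitted over all libraries, the log2 fold change was 1.29 (SE 0.30, edgeR adjusted p = 0.0192). It fell to 0.56 without flox/flox replicate 1 (edgeR adjusted p = 0.143).

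These calls rested in part on single libraries. Without flox/flox replicate 1 only Fth1 (-1.26, edgeR adjusted p = 0.0265) and Ftl1 (-0.88, edgeR adjusted p = 0.0488) stayed called, while Slc40a1 (1.17), Tfr2 (0.69) and Cp (0.75) kept their direction at edgeR adjusted p-values of 0.0613, 0.0657 and 0.0755. Without both libraries of contradicted sex, Fth1 (-1.15, edgeR adjusted p = 0.0481) and Tfrc, then lower, were called.

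The wt/flox libraries were compared with the same wt/wt libraries, which the comparisons therefore share. Cp and Tfr2 rose and Fth1 and Ftl1 fell, 4 of 10 members, where 14.5% of all genes were called (7.58% higher and 6.9% lower). The log2 fold changes were 1.03 for Cp (SE 0.20, edgeR adjusted p = 0.0236), 0.70 for Tfr2 (SE 0.15, edgeR adjusted p = 0.0269), -1.06 for Fth1 (SE 0.17, edgeR adjusted p = 0.0173) and -0.78 for Ftl1 (SE 0.18, edgeR adjusted p = 0.0317). Slc39a14 was at 1.27 (SE 0.36, edgeR adjusted p = 0.0549), Trf at 0.75 (edgeR adjusted p = 0.0786) and Slc40a1 at 0.42 (SE 0.24, edgeR adjusted p = 0.262). Hamp, Hamp2 and Tfrc stood at 0.69, 1.25 and 0.87 with edgeR adjusted p-values of 0.216, 0.156 and 0.358. The libraries did not overlap for 4 higher and 2 lower members, where 25.8% and 29.3% of all genes did the same. No gene of the whole table was called when wt/wt replicate 1, wt/wt replicate 2, wt/flox replicate 1 or wt/flox replicate 2 was left out, so the 4 calls were lost with each of them.

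Between flox/flox and wt/flox, the comparison within the batch mark, no member passed: edgeR called 0 of 10 members and 0% of the 14728 genes, with 525 genes (3.56%) and 1 member at an unadjusted p under 0.05. DESeq2 called 16 genes and 0 members. The member was Slc40a1, at 186.1, 172.2 and 202.6 CPM in flox/flox against 133.1 and 87.1 in wt/flox. Its flox/flox libraries lay above both wt/flox libraries, as did those of 14.2% of all genes. Its log2 fold change was 0.76 (SE 0.27, 95% interval 0.13 to 1.38, edgeR adjusted p = 0.993). Among the flox/flox libraries only replicate 1 held Y-linked transcripts, as both wt/flox libraries did. Genotype and sex are therefore partly confounded here, and the fits lean on the sex term. The 95% intervals of the difference were -0.60 to 0.25 for Fth1, -0.58 to 0.34 for Ftl1, -0.52 to 0.50 for Cp, -0.44 to 0.35 for Tfr2, -0.84 to 0.88 for Slc39a14 and -0.66 to 1.32 for Hamp.

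**Figure D4:**
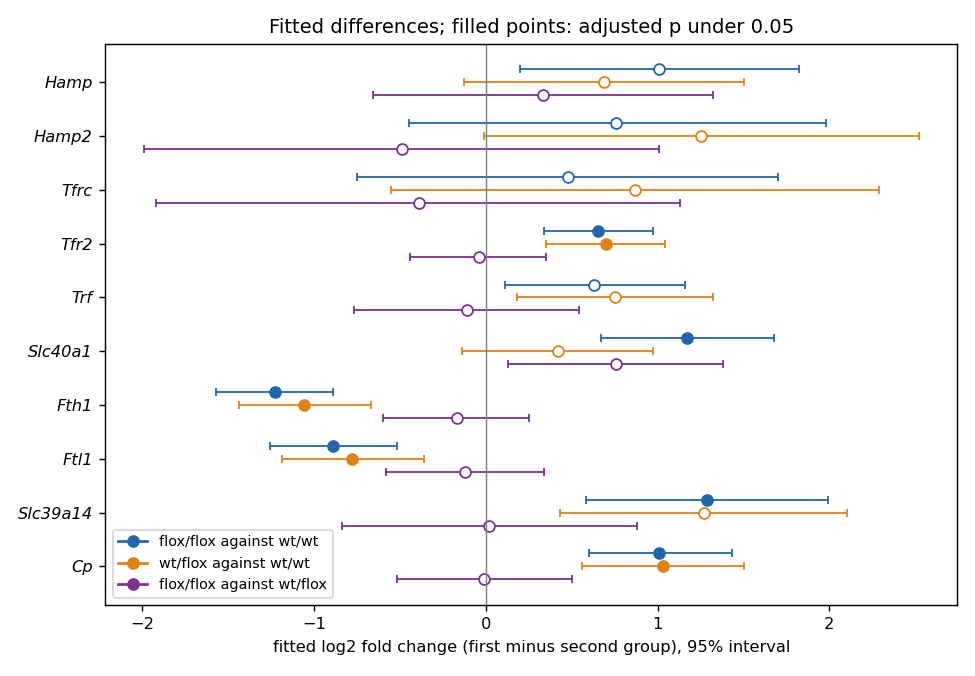
Fitted log2 fold changes (horizontal axis, first group minus second) of the 10 members with 95% intervals in the 3 comparisons, filled where the edgeR adjusted p was under 0.05. Fth1, Ftl1, Tfr2 and Cp are filled in both comparisons with wt/wt, and no point is filled in flox/flox against wt/flox.

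Per kilobase of exon, transferrin was the most abundant member in every group. In wt/wt its mean level was 6500 ± 647.3 CPM per kilobase (SD, n = 3), followed by Ftl1 at 2197 ± 216.8, Fth1 at 722.3 ± 39.1, Cp at 317.0 ± 59.1 and Hamp at 308.3 ± 136.2. Cp and Hamp did not differ beyond their spread. Tfr2 (116.9 ± 7.22) and Hamp2 (116.4 ± 162.6) came next, also within their spread, then Slc39a14 (37.6 ± 11.2), Slc40a1 (24.5 ± 4.57) and Tfrc (15.5 ± 7.16). In flox/flox, Fth1 ranked 6 at 302.1 ± 27.9, under Cp (661.9 ± 68.3), Hamp (507.0 ± 80.2) and Hamp2 (441.9 ± 375.6), the last of which spread widely. Transferrin was then at 10775 ± 2610 and Ftl1 at 1155 ± 71.9. In wt/flox, Fth1 ranked 5 at 353.9 ± 60.5 (n = 2).

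The pathway around the members was read from 6 lists of iron, heme and copper genes, here in flox/flox against wt/wt, beside the 29.1% of all genes called (14.5% higher and 14.6% lower). Counts near those shares say nothing particular of a list. The 13 tested genes of iron uptake and reduction had a median log2 fold change of 0.42. Against 14.5% of all genes higher and 14.6% lower, 4 of them rose and 0 fell. They were Lrp1 (1.17, SE 0.16), the receptor that clears heme bound to hemopexin, the reductases Steap2 (0.88, SE 0.21) and Steap4 (1.30, SE 0.37), and Slc39a8 (0.45, SE 0.14), a relative of Slc39a14 that also carries iron. Their edgeR adjusted p-values were 0.00403, 0.0201, 0.0354 and 0.0498. Leaving out any library but flox/flox replicates 2 and 3 left 2 calls, and library size scaling and the fit without the libraries of contradicted sex left 1 each. Lrp1 was called in all 23 alternatives, whereas Slc39a8 lost its call in 17, Steap4 in 10 and Steap2 in 5. Steap4 was at 0.33 without flox/flox replicate 1. With the length trend removed 2 rose and 0 fell, with Steap2 and Slc39a8 lost.

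Of 23 tested genes of hepcidin regulation, 6 rose and 2 fell (median 0.43), where 29.1% of all genes were called. Those that rose included the BMP pathway receptors Bmpr2 (0.84, SE 0.10, edgeR adjusted p = 0.00349) and Acvr2a (0.81, SE 0.14, edgeR adjusted p = 0.0076), and Neo1 (0.89, SE 0.12, edgeR adjusted p = 0.00441), which encodes neogenin, a partner of hemojuvelin. The receptor Acvr1 (0.58) and Hjv, the gene of hemojuvelin (0.33), were not called, at edgeR adjusted p-values of 0.2 and 0.0768. The ligand Bmp2 fell 2.79-fold, from 8.21, 7.92 and 13.3 CPM in wt/wt to a mean of 4.29 in flox/flox (-1.48, SE 0.21, edgeR adjusted p = 0.00473). Named after their values were seen, Bmp6 fell as well (-1.02, edgeR adjusted p = 0.0385), and Bmpr1a (0.56), Tmprss6 (0.53), the protease that restrains hepcidin, and Il6st (0.50), the signalling chain of the interleukin 6 receptor, rose with edgeR adjusted p-values of 0.0108, 0.0307 and 0.0247. Bmp2 and Bmp6 are made by sinusoidal endothelial cells. Of 12 markers of those cells 10 fell, where 14.6% of all genes fell, and none was at 0. Summed, these markers were at 202.9 to 321.6 CPM in wt/wt, 102.2 to 116.2 in wt/flox and 91.2 to 188.3 in flox/flox. The part of these cells in the fall of the ligands was not tested. The BMP target genes Id1 (0.18), Smad7 (0.36), Smad6 (-1.15) and Atoh8 (-0.62) were not called, at edgeR adjusted p-values of 0.842, 0.434, 0.119 and 0.0877. With the length trend removed, 5 genes of the list rose and 2 fell. The count of 8 calls fell to 5 when replicate 1 or 2 of wt/wt, or replicate 1 of flox/flox, was left out. It became 0 higher and 1 lower without the libraries of contradicted sex, and 3 higher and 4 lower with library size scaling.

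Of 12 genes of cellular iron sensing and chaperones, 1 rose and 3 fell (median -0.34), near the share of all genes called. Pcbp1, the chaperone that hands iron to ferritin, fell (-0.97, SE 0.14, edgeR adjusted p = 0.00462), as did Bola2 (-1.35, SE 0.15, edgeR adjusted p = 0.00301) and Glrx3 (-0.64, SE 0.17, edgeR adjusted p = 0.029), which form an iron-sulfur chaperone complex. Herc2, a ubiquitin ligase of the ferritin receptor Ncoa4, rose (0.80, SE 0.18, edgeR adjusted p = 0.0178). The iron regulatory proteins Aco1 (-0.31) and Ireb2 (0.16) were not called, at edgeR adjusted p-values of 0.135 and 0.488. With replicate 1 or 2 of wt/wt, or replicate 1 of flox/flox, left out, the list held 2 calls, and without flox/flox replicate 2 it held 6. With the length trend removed 0 rose and 2 fell, with Herc2 and Glrx3 lost, and with library size scaling 0 rose and 8 fell.

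Of 20 tested genes of mitochondrial iron and iron-sulfur clusters, 7 fell (median -0.35), where 14.6% of all genes fell. Bola3 (-1.11, SE 0.12), Glrx5 (-0.83, SE 0.12) and Nfu1 (-0.81, SE 0.10), which pass on or assemble clusters, were among them. Their edgeR adjusted p-values were 0.00297, 0.0048 and 0.00397. Without flox/flox replicate 1, 4 genes of the list fell, with the length trend removed 6 fell, and without the libraries of contradicted sex 2 fell.

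Of 17 genes of heme synthesis, transport and breakdown, 3 rose and 3 fell (median -0.29), where 29.1% of all genes were called. Flvcr2 (1.33, SE 0.28, edgeR adjusted p = 0.0129) and Abcg2 (0.64, SE 0.11, edgeR adjusted p = 0.00742), membrane transporters, rose. The Abcg2 call depended on the sex term: its groups overlapped (83.4, 81.3 and 33.2 CPM against 121.1, 58.1 and 51.0), and it was not called with the labelled sex or without a sex term (0.22, edgeR adjusted p = 0.715). The biliverdin reductases Blvrb (-0.78, SE 0.16, edgeR adjusted p = 0.0116) and Blvra (-0.57, SE 0.14, edgeR adjusted p = 0.02) fell. Only 1 call was left without wt/wt replicate 3, 3 were left without replicate 1 of wt/wt or of flox/flox, and with the length trend removed 3 rose and 0 fell. With library size scaling 2 rose and 8 fell, and without the libraries of contradicted sex 1 rose and 0 fell. Of 6 copper transport genes, 3 rose and 2 fell (median 0.25), where 14.5% of all genes rose and 14.6% fell, and without the libraries of contradicted sex 1 rose and 1 fell. The copper pumps Atp7a (1.06, SE 0.15) and Atp7b (1.02, SE 0.15), the latter of which loads ceruloplasmin in hepatocytes, rose, and Atox1 (-1.13, SE 0.12), the chaperone that feeds them, and Commd1 (-1.03, SE 0.14) fell. Their edgeR adjusted p-values were 0.00478, 0.00516, 0.00296 and 0.00444. With the length trend removed 3 copper genes rose and 2 fell, as before. In flox/flox against wt/flox no gene of any of the 6 lists was called.

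**Figure D5:**
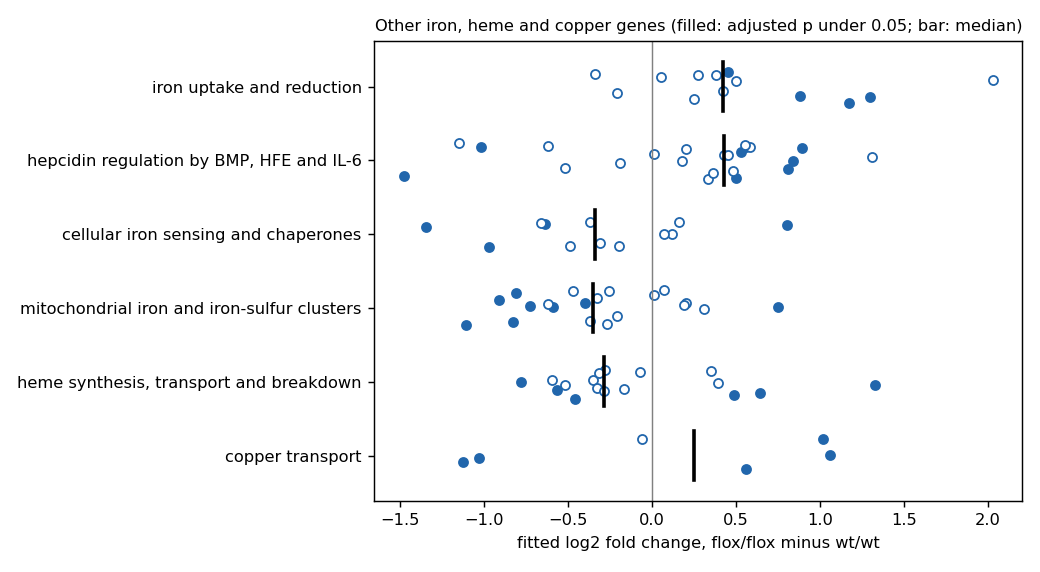
Fitted log2 fold change of flox/flox minus wt/wt (horizontal axis) for each tested gene of the 6 lists, 1 point per gene, spread vertically so that points do not cover each other. Filled points had an edgeR adjusted p under 0.05 and black bars are list medians, which lie at 0.42 and 0.43 for uptake and hepcidin regulation and at -0.34 and -0.35 for chaperones and mitochondrial clusters.

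Summed levels of hepatocyte markers and of acute phase genes were lower in each wt/wt library than in each other library, although the share of these genes called was near the 29.1% of all genes. All of their calls were higher and 0 were lower, where 14.5% of all genes rose and 14.6% fell. Hepatocyte markers (10 genes, 3 of which rose, none at 0) summed to 101829 to 120995 CPM in wt/wt, 151938 to 172102 in wt/flox and 164513 to 243840 in flox/flox. Most of that sum was Alb, which was not called (0.67, edgeR adjusted p = 0.103), and Apoa1 (-0.03), Ttr (-0.00), Tat (-0.06) and Hnf4a (-0.20) were not called either. Acute phase genes (19 genes, 6 of which rose) summed to 21403 to 35010 CPM in wt/wt, 40226 to 44513 in wt/flox and 41721 to 54474 in flox/flox. C3 and the fibrinogen genes carried most of it, while Saa1 (-0.77), Saa2 (-1.18), Saa3 (-0.45), Orm1 (-0.19) and Orm2 (-0.55) had values below 0 and were not called. Cp, Trf, Tfr2 and Slc39a14 were also lowest in the 3 wt/wt libraries, and the part of the hepatocyte share, the acute phase or the batch mark in their levels was not tested. With 1 library left out, 0 to 5 Kupffer cell markers, 5 to 11 endothelial markers (5 without flox/flox replicate 1) and 1 to 3 hepatocyte markers were called. No acute phase gene was called without wt/wt replicate 2 or without flox/flox replicate 1. Counted reads of red cell markers were few: 9 of 10 were in the tables and they summed to 1.24 to 3.98 CPM. Most of that was Klf1 (1.24 to 3.97 CPM), which was not called (0.12, edgeR adjusted p = 0.859). Hba-a2 was at 0.0507, 0.169 and 0.146 CPM in wt/wt and at 0 in all other libraries (-6.81, edgeR adjusted p = 0.0321, 41 reads in all). Hba-a1, Hbb-bs and Hbb-bt had no counted read in any library. They have near-identical copies and reads aligned to several places were not counted, so this sets no bound on their level.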

How the data were processed

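Bulk RNA of liver cells was measured in 8 libraries (3 wt/wt, 2 wt/flox, 3 flox/flox). Each deposited table gives unnormalised counts of reads for every gene symbol, sense and antisense apart, per the file headers. GRCm38 (mm10) and DESeq2 are named by the submitters' processing notes. For the aligner, the counter and the annotation, nothing is given in the sources used here. The 5 rows that name no gene were left out. Reads in no gene were 22.2% to 28.1% of the reads in wt/wt and 31.7% to 40% in the wt/flox and flox/flox libraries, a split that follows the batch mark. Coordinates and exon lengths are from GENCODE M21, matched for 24719 of 25229 symbols (98%).

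Sense counts were tested with edgeR 4.0.16 (R 4.3.3): TMM size factors, filterByExpr, the quasi-likelihood F test, Benjamini-Hochberg adjustment over the 14728 genes tested, threshold 0.05, two-sided. All 8 libraries entered 1 fit with genotype (labels) and sex (Xist and Y-linked transcripts), and 3 contrasts were taken. Fold changes are those of the fit and can differ from ratios of group means. CPM were scaled by TMM, and the likeness to Hamp used log2(CPM + 0.5). P-values over 2 or 3 libraries a group measure the spread between these libraries, and intervals cover no other error. Each library was taken as 1 mouse, although the design text counts 2 flox/flox mice for 3 libraries. That spread is one between mice only if this holds. No libraries agreed within sampling noise. The steps were tested on simulated data.

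The members, lists and tests were chosen with earlier results of these data known. By the rule for names, each member, Adar, up to 4 called genes of each list with the smallest p and the 5 genes closest to Hamp (leaving out Hamp2, Rik clones and predicted genes) are named. The 23 alternatives were RLE, upper-quartile or library size scaling, a filter at mean CPM 1 or none, limma-voom (limma 3.58.1), DESeq2 1.42.0, labelled or no sex, the replicate number as a block with or without sex, a fit of the compared groups alone, every library left out in turn, no libraries of contradicted sex, added antisense counts, and a length trend removed. Antisense counts were otherwise not compared. A result of 1 listed gene is not reported here.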

Additional observations from a re-analysis of the deposited data

Results flagged for a closer look

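The antisense column of the count tables was used above only in the alternative that added antisense counts. It held a larger share of the reads of 4 members in every flox/flox than in every wt/wt library. Antisense reads made up 16.6% ± 0.315 (SD, n = 3) of the reads of Hamp in flox/flox, 14.8% ± 1.03 (n = 2) in wt/flox and 11.5% ± 0.246 (n = 3) in wt/wt. For Hamp2 the shares were 17% ± 0.587, 16.6% ± 0.0839 and 11.3% ± 0.553. For Tfr2 they were 9.53% ± 0.408, 8.54% ± 0.51 and 8.03% ± 0.109, and for Ftl1 9.54% ± 0.225, 8.67% ± 0.779 and 8.16% ± 0.187. The share was lower in every flox/flox than in every wt/wt library for Trf, Slc40a1 and Cp, and overlapped for Tfrc, Fth1 and Slc39a14. Of 12552 tested genes with at least 20 reads of both strands together in every library, 2404 (19.2%) were higher in this way and 1389 (11.1%) lower. Over all genes summed, antisense reads made up 7.65% ± 0.114 in flox/flox, 6.81% ± 0.545 in wt/flox and 7.35% ± 0.171 in wt/wt. The batch mark splits wt/wt from the other libraries here too. No group has 4 or more libraries, so no library was tested as an outlier.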

How the results depend on the processing

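A result not called before or after a change counted as kept, and these groups of 2 or 3 libraries limit what can be called. Fth1 in flox/flox against wt/wt was called under all 23 alternatives (log2 fold change -1.55 to -0.85). Scaling by library size alone moved the median of all genes to -0.32 in flox/flox against wt/wt (691 genes higher and 4159 lower, against 2139 and 2143 with TMM) and to -0.40 in wt/flox against wt/wt (3907 genes, 356 higher and 3551 lower, against 2132, 1116 and 1016). Upper-quartile scaling gave 991 higher and 1389 lower genes in wt/flox against wt/wt. No called member changed direction under these scalings. In wt/flox against wt/wt, the labelled sex gave 1300 genes, the length trend removed gave 837, and DESeq2 and the fit of only those groups each gave 7 members in place of 4. In flox/flox against wt/flox, DESeq2 called 16 genes, and the fit of only those groups and the fit without the libraries of contradicted sex called 1 each. That last fit called 1054 genes and 2 members in flox/flox against wt/wt, with Tfrc turned to -1.53. With each library left out in turn, genes called ran from 1811 to 3866 and members from 2 to 7 in flox/flox against wt/wt, from 0 to 2 and from 0 to 0 in flox/flox against wt/flox, and from 0 to 2421 and from 0 to 6 in wt/flox against wt/wt. Where that left 1 library in a group, its spread was assumed to be that of the others. The lowest counts were reached without flox/flox replicate 1 in the first comparison. Slc39a14 was also lost without wt/wt replicate 1 or 2, and Tfr2 without wt/wt replicate 3. The cause of these changes was not tested.

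Replicate numbers are shared across genotypes and go with labelled age. Correlations of same-numbered libraries' deviations from their group means ran from -0.00188 to 0.43. Replicates 1 and 3 of wt/wt correlated best with the flox/flox library of the same number (0.333 and 0.43). Replicate 2 of wt/wt correlated best with flox/flox replicate 1 (0.353). Sex was not removed from these deviations, so they cannot settle whether the libraries are pairs. Same-numbered libraries, which share a number and a labelled age, were not taken as pairs in the main fit. With the replicate block and sex, flox/flox against wt/wt gave 1786 genes and lost Tfr2 and Slc39a14, and wt/flox against wt/wt gave 0 genes and 0 members. With the replicate block and no sex term, wt/flox against wt/wt gave 2 members, Fth1 and Ftl1.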
